A study of Homo sapiens with 3 samples.

Results

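The chaperonins are ring-shaped protein-folding machines, and their 10 transcripts in human cells (TCP1, CCT2, CCT3, CCT4, CCT5, CCT6A, CCT7, CCT8, HSPD1 and HSPE1) were followed here through treatment of neuroendocrine prostate cancer cells with an HSP70 inhibitor. The members are the genes of the table that carry these symbols, 10 of 58735 genes, and all 10 were found once each. RNA sequencing had been done on H660 (NCI-H660), an established line of neuroendocrine prostate cancer that the labels call parental and list as prostatic adenocarcinoma. Cells received the vehicle DMSO, 2.5 µM JG231 or 5 µM JG231 for 24 h, with no other agent and no genetic change named in any group, and the comparison asks how transcripts respond to JG231, an allosteric inhibitor of HSP70. Each condition is 1 library, so no spread between cultures can be given, no test was made, and the 3 libraries compare 3 samples of 1 cell line.

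TRiC (also called CCT) is the chaperonin of the cytosol, stacked rings in which every position is held by a different subunit, encoded by TCP1 and CCT2 to CCT8. It folds actin, tubulins and many proteins of the WD40 propeller type, receives substrates from prefoldin and from HSP70, and closes over them in an ATP-driven cycle. The mitochondrial matrix has a chaperonin of the bacterial type, with rings of HSP60 (HSPD1) and a lid of HSP10 (HSPE1). HSPD1 and HSPE1 lie head to head on chromosome 2 and are transcribed away from each other from a shared region that responds to heat shock factor 1.

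That shared region is shown first, because the 2 transcripts it serves differed in their changes in the treated libraries. RefSeq (GRCh38.p14) places the start of HSPD1 at base 197499840 on the minus strand and that of HSPE1 at base 197500379 on the plus strand, with 538 bases between them. The 250 bases before each start are printed 5′ to 3′ on the strand of the gene, chr2:197499841-197500090 (minus) for HSPD1 and chr2:197500129-197500378 (plus) for HSPE1. Capitals mark 4 alternating heat shock units (TTC and GAA in turn, each a pair of bases from the next) in HSPD1 and an E-box, CACGTG, in HSPE1.
HSPD1: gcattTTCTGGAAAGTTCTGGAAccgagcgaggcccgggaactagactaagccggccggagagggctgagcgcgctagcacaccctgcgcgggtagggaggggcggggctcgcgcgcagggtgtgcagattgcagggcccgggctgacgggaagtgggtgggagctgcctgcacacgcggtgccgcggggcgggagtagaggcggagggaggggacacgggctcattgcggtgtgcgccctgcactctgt
HSPE1: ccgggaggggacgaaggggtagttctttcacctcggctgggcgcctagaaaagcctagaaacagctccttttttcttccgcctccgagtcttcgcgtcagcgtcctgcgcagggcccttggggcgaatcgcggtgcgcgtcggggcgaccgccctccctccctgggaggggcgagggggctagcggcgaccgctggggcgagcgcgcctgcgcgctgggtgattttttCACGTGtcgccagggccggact
The capitals of HSPD1 begin 245 bases before its start, and the E-box of HSPE1 begins 22 bases before its own. A run of 4 alternating units was found in 12 of 35116 RefSeq promoter windows of 300 bases (250 before and 50 after the start; 0.034%), and in 1 of the 12 windows of the chaperonin genes. Windows were held for 9 of the 10 members, all but CCT6A. The shorter heat shock elements, GAANNTTC or TTCNNGAA on either strand (the 4-unit run contains both), occurred in 4 of the 12 member windows, those of TCP1, CCT2, CCT4 and HSPD1, and in 13.5% of all windows. CACGTG occurred in 2 member windows, where the E-box of HSPE1 also falls in the window of a more upstream HSPD1 start, and in 7.26% of all windows. The C/EBP-ATF composite TGATGNAA and the mitochondrial stress element TGATGCAAT were in 0 of the 12 member windows, against 3.62% and 0.236% of all windows. CCAAT was in 4 member windows (TCP1, CCT2, CCT3 and CCT8) and in 34.6% of all windows. A match of letters is a description and not a site.

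About 16100000 (DMSO), 20400000 (2.5 µM) and 24000000 (5 µM) fragments entered the FPKM scaling, as read from the steps of the low values. They need not equal the reads per sample that the paper's methods state. Genes above 0 numbered 21862, 19352 and 17293 in the same order, fewer in the libraries with more fragments. Each member had between 344 and 8635 fragments in a library, computed with the canonical transcript length and therefore approximate. Intervals given below cover this counting error only. The cells carried the neuroendocrine markers of their label, with 6 of 7 at a mean FPKM (fragments scaled to transcript length and to library depth) of at least 1 and MYCN below that; the markers summed to 429, 176 and 151 FPKM in DMSO, 2.5 µM and 5 µM, and all 6 were lower at 5 µM, 5 of them at 2.5 µM. The 6 immune, stromal and endothelial markers summed to at most 1.34 FPKM, with PTPRC and PECAM1 at 0 in all 3 libraries. In such bulk samples, fewer cells of a type and less RNA per cell cannot be told apart. Mitochondrial and small RNA genes took 40.5%, 24.6% and 29.2% of the FPKM sum in DMSO, 2.5 µM and 5 µM. Scaling the libraries without these genes moved the median change of all expressed genes from 0.00 to −0.28 at 2.5 µM and from −0.01 to −0.38 at 5 µM, so changes are best read relative to the median gene. Their part in the results was not tested.

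The chaperonin transcripts were abundant and changed little. On the log2(FPKM + 0.1) scale used throughout, a change over 0.25 in a gene with FPKM over 1 in either library is called past the fold, which is a size and not a test. At 5 µM, 5 of 10 members were higher past the fold (CCT2, CCT4, CCT7, CCT8 and HSPD1), 1 was lower (CCT6A) and 4 were within it. Over all 15765 genes that passed the filter at this dose, 36.5% were higher and 45.1% lower. At 2.5 µM, 4 members were higher (CCT4, CCT7, CCT8 and HSPD1), 1 was lower (HSPE1) and 5 were within the fold, while 36.4% of 15746 genes were higher and 43.4% lower. For higher calls the members' counts lie near these backgrounds, and lower calls were 1 of 10 at each dose. In the top decile of genes by expression, where most members lie, 62.7% were higher and 16.1% lower at 2.5 µM, and 68.5% and 14.2% at 5 µM. Lower calls of the members thus lie near the share of genes of like level. A change over 1 in either direction was reached by 0 of 10 members at either dose, against 34.6% of genes at 2.5 µM and 38.9% at 5 µM. In the top decile by expression, 24.7% of genes reached it at 2.5 µM and 32.6% at 5 µM. The higher calls hold on the deposited scale: scaled without mitochondrial and small RNA genes, 0 members were higher past the fold at either dose, and 4 were lower at 2.5 µM and 2 at 5 µM. That scaling shifts all genes alike: over all genes tested it gives 25.5% higher and 54.8% lower at 2.5 µM, and 58.6% lower at 5 µM.

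**Figure D1:**
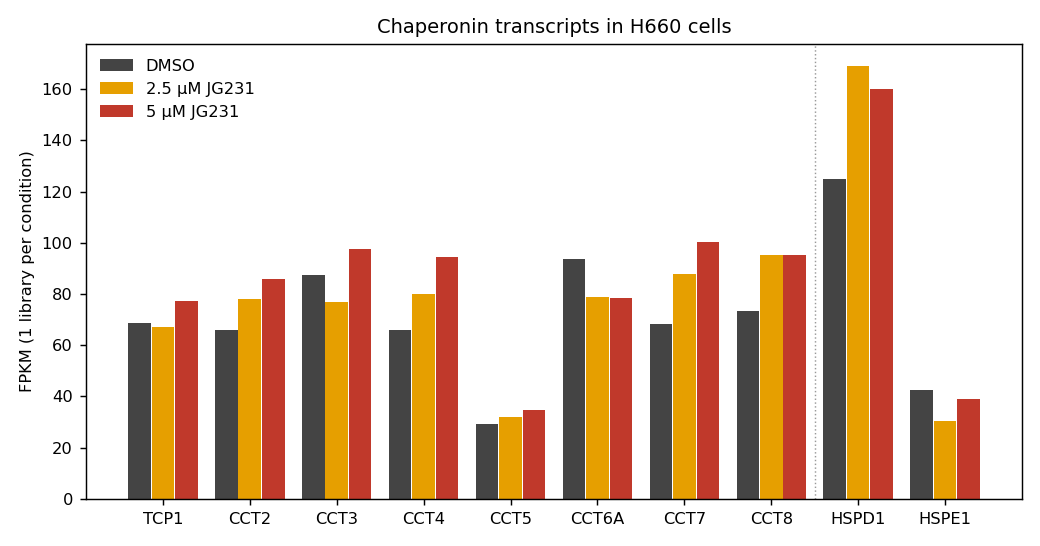
Level of each chaperonin transcript in FPKM (vertical axis from 0), with 1 bar per library for DMSO, 2.5 µM and 5 µM JG231 and a dotted line between the TRiC subunits and the mitochondrial pair. HSPD1 is the tallest in every library, at 125, 169 and 160 FPKM, and CCT5 is the lowest TRiC subunit, at 29.4, 32.1 and 34.8 FPKM.

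All 8 TRiC subunits were expressed in all 3 libraries at levels between 29.4 and 100 FPKM. In DMSO the order from high to low was CCT6A, CCT3, CCT8, TCP1, CCT7, CCT4, CCT2 and CCT5. From CCT8 down to CCT2 the levels ran only from 73.5 to 66.0 FPKM, so neighbors there cannot be ranked without replicates, while CCT5 stood well below. Levels of different genes also depend on the gene lengths used, which are not known, so the order and the place of CCT5 are approximate. Without CCT5, the highest subunit was 1.42-fold the lowest in DMSO, 1.42-fold at 2.5 µM and 1.30-fold at 5 µM. The median subunit was at 68.5 FPKM in DMSO, 78.5 FPKM at 2.5 µM and 90.1 FPKM at 5 µM.

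The subunits CCT7, CCT4, CCT8 and CCT2 made up the upper side of the range of changes. CCT7 (ENSG00000135624, chr2:73233420-73253021, plus strand; coordinates of genes are from GENCODE 44 on GRCh38), the eta subunit, was at 68.3 FPKM in DMSO, 88.0 FPKM at 2.5 µM and 100 FPKM at 5 µM. Its log2 change was 0.36 at 2.5 µM (95% counting interval 0.28 to 0.44) and 0.55 at 5 µM (0.48 to 0.63), the largest of the 10 members at 5 µM on the deposited scale. With the length trend removed CCT4 (0.29) was above CCT7 (0.22) at 5 µM. On the deposited scale both treated libraries were above DMSO for CCT7, and the order followed the dose. With a common FPKM sum its changes were 0.41 and 0.42, nearly the same at both doses. CCT4 (ENSG00000115484, chr2:61868085-61888671, minus strand), the delta subunit, was at 66.1, 80.1 and 94.3 FPKM in the same order of libraries. Its change was 0.28 (0.21 to 0.35) at 2.5 µM and 0.51 (0.44 to 0.58) at 5 µM. CCT4 thus followed the order of CCT7 on the deposited scale, with a smaller step at 2.5 µM. With a common FPKM sum CCT4 was at 0.33 and 0.38. CCT8 (ENSG00000156261, chr21:29055805-29073797, minus strand), the theta subunit, was at 73.5, 95.3 and 95.4 FPKM. This gave 0.37 (0.30 to 0.45) at 2.5 µM and 0.38 (0.30 to 0.45) at 5 µM, the same value at both doses within counting error on the deposited scale, and 0.42 and 0.24 with a common FPKM sum. CCT2 (ENSG00000166226, chr12:69585426-69601570, plus strand), the beta subunit, was at 66.0, 78.1 and 85.9 FPKM, with 0.24 (0.16 to 0.32) at 2.5 µM, just inside the fold, and 0.38 (0.30 to 0.46) at 5 µM. With a common FPKM sum CCT2 was at 0.29 and 0.25. For these 4 genes the sign depends on what they are set against: with the trend of change on expression level removed, all 4 were below 0 at both doses, between −0.05 for CCT7 at 5 µM and −0.23 for CCT8 at 5 µM.

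TCP1, CCT3 and CCT5 stayed within the fold at both doses on the deposited scale, whereas with the expression trend removed TCP1 (−0.49 and −0.40) and CCT3 (−0.67 and −0.45) were lower past it. TCP1 (ENSG00000120438, chr6:159778498-159789703, minus strand), the alpha subunit, was at 68.8 FPKM in DMSO, 67.3 FPKM at 2.5 µM and 77.4 FPKM at 5 µM. The changes were −0.03 (−0.11 to 0.04) and 0.17 (0.10 to 0.24), so the 2.5 µM library could not be told from DMSO at this depth. CCT3 (ENSG00000163468, chr1:156308968-156367873, minus strand), the gamma subunit, was at 87.4, 76.9 and 97.5 FPKM, lowest at 2.5 µM and highest at 5 µM, with changes of −0.18 (−0.26 to −0.11) and 0.16 (0.09 to 0.23). CCT5 (ENSG00000150753, chr5:10249929-10266389, plus strand), the epsilon subunit, was at 29.4, 32.1 and 34.8 FPKM, with changes of 0.13 (0.04 to 0.22) and 0.24 (0.15 to 0.33). Both treated libraries lay above DMSO for CCT5 on the deposited scale, by less than the fold, and below it without mitochondrial and small RNA genes in the scaling (−0.16 and −0.14) and with the expression trend removed (−0.23 and −0.18).

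CCT6A was the only subunit below DMSO at both doses on the deposited scale, and TCP1 and CCT3 were below it at 2.5 µM. The zeta subunit CCT6A (ENSG00000146731, chr7:56051685-56063989, plus strand) had the highest TRiC level in DMSO, 93.7 FPKM, and was at 78.9 FPKM at 2.5 µM and 78.4 FPKM at 5 µM. The changes were −0.25 (−0.31 to −0.18), just inside the fold, and −0.26 (−0.32 to −0.20), just past it, and centered on the median gene the 5 µM value was −0.25 and inside. CCT6A was below DMSO at both doses under each of the scalings and trend corrections run, from −0.20 to −0.73 at 2.5 µM and from −0.25 to −0.86 at 5 µM.

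**Figure D2:**
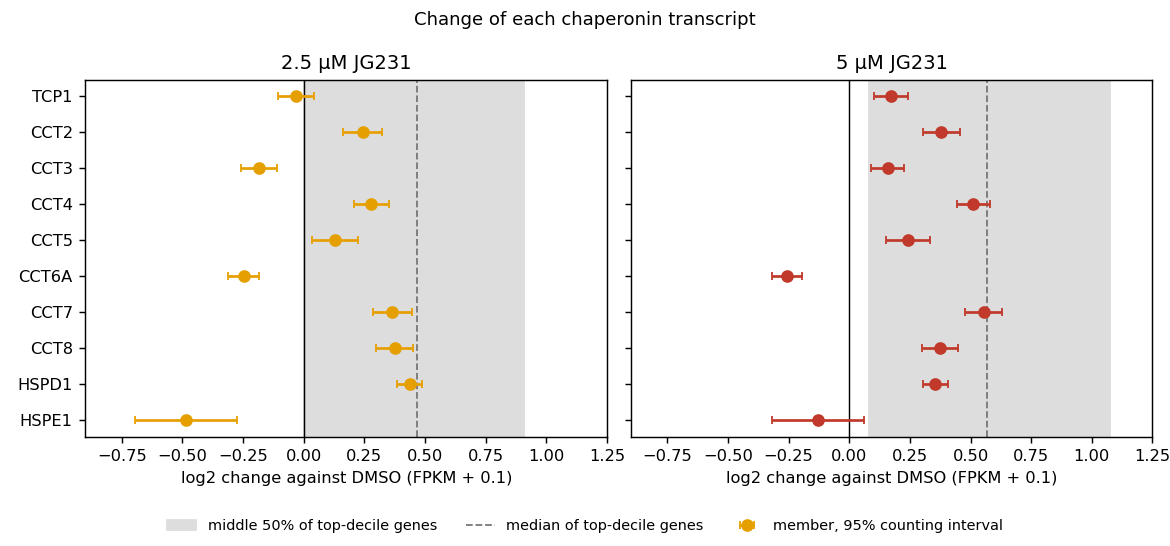
Log2 change of each member against DMSO (horizontal axis, log2 of FPKM + 0.1) at 2.5 µM and 5 µM, with 95% counting intervals as bars, the middle 50% of the top decile of genes by expression in gray and their median dashed. Every member lies below the dashed median at both doses (0.47 and 0.57), and CCT6A and HSPE1 lie left of 0 at both.

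Unequal change within TRiC can be read inside each library, where no scaling between libraries enters. CCT7 was at 0.729 of the CCT6A level in DMSO, 1.11 at 2.5 µM and 1.28 at 5 µM, so the order of the pair was the reverse of DMSO in both treated libraries. The difference between their log2 changes was 0.61 (0.51 to 0.71) at 2.5 µM and 0.81 (0.71 to 0.91) at 5 µM. Over the alternatives run it stayed between 0.51 and 0.61 at 2.5 µM and between 0.65 and 0.81 at 5 µM. The pair was chosen for its difference, as the ends of the range at 5 µM on the deposited scale, and the difference is a description. Genes at the levels of this pair had a combined spread of 0.30 between the JG231 libraries, dose included, which the counting intervals leave out. The share of CCT6A in the summed TRiC level went from 16.9% in DMSO to 13.2% and 11.8%, while that of CCT7 went from 12.3% to 14.7% and 15.1%. CCT5 held 5.31%, 5.39% and 5.24% of the sum, nearly the same share in each library. The other shares were between 11.3% and 16.0%.

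**Figure D3:**
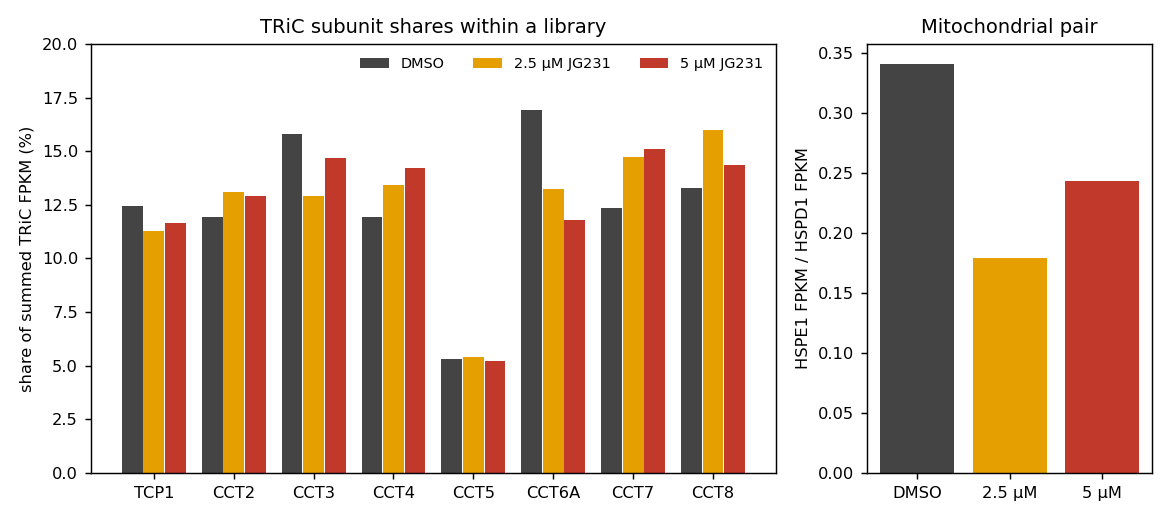
Left, share of each TRiC subunit in the summed TRiC FPKM of a library (percent, axis from 0); right, HSPE1 FPKM divided by HSPD1 FPKM, each with 1 bar per library. The CCT6A bar shortens from 16.9% to 13.2% and 11.8%, and the ratio on the right is 0.340 in DMSO, 0.179 at 2.5 µM and 0.243 at 5 µM.

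As a group, the TRiC subunits had a median change of 0.19 at 2.5 µM (range −0.25 to 0.37) and 0.31 at 5 µM (range −0.26 to 0.55), against medians of 0.00 and −0.01 over the 13785 expressed genes (mean FPKM of 1 or more). Past the fold were 3 of 8 higher and 0 lower at 2.5 µM, and 4 of 8 higher and 1 lower at 5 µM. Scaled without mitochondrial and small RNA genes, the TRiC medians were −0.10 and −0.07, below 0 and above the median gene on that scale. The summed TRiC level was 553 FPKM in DMSO, 597 FPKM at 2.5 µM and 664 FPKM at 5 µM.

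On the deposited scale most highly expressed genes were higher after treatment, and the chaperonins were less so. The part played in this by the smaller number of genes above 0 in the treated libraries was not tested. Of the 10 members, 9 belonged to the top decile of genes by expression (1379 genes, mean FPKM of at least 32.5), and CCT5 lay just under it. That decile had a median change of 0.47 at 2.5 µM, with quartiles of 0.00 and 0.91, and of 0.57 at 5 µM, with quartiles of 0.08 and 1.08. In it, 62.7% of genes were higher past the fold at 2.5 µM and 68.5% at 5 µM, and 16.1% and 14.2% were lower. All 10 members lay below its median at both doses, from the 9.4 percentile for HSPE1 at 2.5 µM to the 49.2 percentile for CCT7 at 5 µM. With the trend of change on expression removed, the TRiC median was −0.23 at 2.5 µM and −0.22 at 5 µM. The TRiC median thus lies above the median of all genes and below that of genes of like level.

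**Figure D4:**
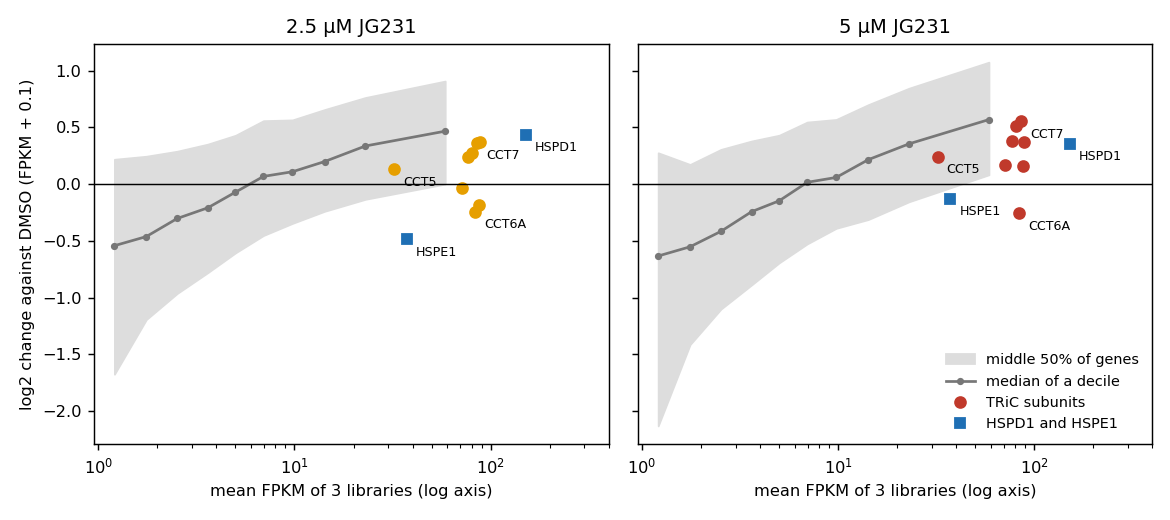
Log2 change against DMSO (vertical axis) by mean FPKM of the 3 libraries (horizontal axis, log scale), with the median and the middle 50% of each decile of expressed genes in gray and the members as colored points. The gray line climbs with expression to 0.47 at 2.5 µM and 0.57 at 5 µM, and all members lie under its right end.

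The 2 genes of the mitochondrial chaperonin differed from each other. HSPD1 (ENSG00000144381, chr2:197486584-197516737, minus strand), which encodes the HSP60 ring, was at 125 FPKM in DMSO, 169 FPKM at 2.5 µM and 160 FPKM at 5 µM. Its change was 0.44 (0.38 to 0.49) at 2.5 µM and 0.36 (0.30 to 0.41) at 5 µM, past the fold at both doses on the deposited scale, −0.11 and −0.35 with the expression trend removed, and −0.02 at 5 µM when scaled without mitochondrial and small RNA genes. HSPE1 (ENSG00000115541, chr2:197500140-197503449, plus strand), which encodes the HSP10 lid, was at 42.5, 30.3 and 38.9 FPKM. Both treated libraries were below DMSO for HSPE1, by −0.49 (−0.70 to −0.28) at 2.5 µM, past the fold, and by −0.13 (−0.32 to 0.06) at 5 µM, within counting error of 0 on the deposited scale. At 5 µM HSPE1 was lower past the fold with a common FPKM sum (−0.26) and without mitochondrial and small RNA genes in it (−0.51). It was also lower past the fold with the length trend (−0.86) or the expression trend removed (−0.58), and within the fold under the other alternatives. At 2.5 µM the last 3 of these gave −0.78, −0.98 and −0.87. HSPE1 has the widest intervals of the members, since its transcript of 557 bp gives the fewest fragments.

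Within a library, the HSPE1 to HSPD1 ratio was 0.340 in DMSO, 0.179 at 2.5 µM and 0.243 at 5 µM. The log2 change of HSPD1 exceeded that of HSPE1 by 0.92 (0.71 to 1.14) at 2.5 µM and by 0.48 (0.29 to 0.68) at 5 µM. Across the alternatives run, the excess ranged from 0.76 to 1.24 at 2.5 µM and from 0.23 to 0.96 at 5 µM, keeping its sign. The intervals hold counting error only. Genes at the levels of this pair had a combined spread of 0.32 between the JG231 libraries, dose included. Relative to the TRiC median of the same library, HSPD1 was at 1.82, 2.16 and 1.78, so its level beside TRiC was highest at 2.5 µM and about that of DMSO at 5 µM. HSPE1 was at 0.621 of the TRiC median in DMSO and at 0.386 and 0.432 of it in the treated libraries. The mean change of the pair, −0.03 at 2.5 µM and 0.11 at 5 µM, therefore describes neither gene.

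Other rows of the table bear on these values. Both mitochondrial chaperonin genes have many processed pseudogenes, near copies that can take or give reads: the table lists 26 for HSPE1 and 17 for HSPD1, of which 3 and 3 were above 0. The HSPE1 pseudogenes summed to 2.82, 0.96 and 6.11 FPKM, and HSPE1P2 made up the whole of the 5 µM value; summed with HSPE1, they put its 5 µM change at −0.01. With the pseudogenes of both genes summed with them, the HSPE1 to HSPD1 ratio was 0.350 in DMSO, 0.180 at 2.5 µM and 0.274 at 5 µM. Over all members 7 of 52 pseudogene rows were above 0, with 9.65, 6.65 and 11.8 FPKM in all. In GENCODE 44 the span of HSPD1 overlaps HSPE1, MOB4 and the read-through gene HSPE1-MOB4 on the opposite strand; the last is listed at 0 in all 3 libraries. MOB4 was at 8.94, 11.4 and 11.7 FPKM, a change of 0.35 and 0.38. SF3B1, a splicing factor gene that lies beyond the other end of HSPD1, was at 43.2, 47.6 and 44.7 FPKM, a change of 0.14 and 0.05. TCP1 overlaps ACAT2 on the opposite strand, which was at 9.43, 10.5 and 11.4 FPKM, and lies next to MRPL18, a mitochondrial ribosomal protein gene at 60.2, 75.6 and 95.5 FPKM (0.33 and 0.66). CCT3 overlaps TSACC (2.84, 2.20 and 3.76 FPKM). No source used here says if reads were counted by strand, which leaves these overlapping genes uncertain.

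Between the 2 doses, the order of levels depended on the scaling. On the deposited scale 8 of 10 members were above their 2.5 µM level at 5 µM, all but CCT6A and HSPD1 and with CCT8 above by only 0.0015, with a median difference of 0.16 over the TRiC subunits. With each library rescaled to a common FPKM sum, 5 of 10 were, and the median difference was −0.02. On the deposited scale the difference passed 0.25 for CCT3 (0.34) and HSPE1 (0.36), which had their lowest levels at 2.5 µM, as TCP1 did. For genes of the members' levels, the scaled median absolute deviation of the difference between the JG231 libraries was 0.21 to 0.26, which includes dose as well as library. Both comparisons share the DMSO library, so the likeness of their values is no independent support. CCT8 (0.00) and CCT6A (−0.01) were at the same deposited level in both JG231 libraries.

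The lists below are to be read against the all-gene shares past the fold, 36.4% higher and 43.4% lower at 2.5 µM and 36.5% and 45.1% at 5 µM. Prefoldin, which hands actin and tubulin to TRiC, was higher at both doses. All 6 subunit genes were higher past the fold at both doses on the deposited scale, with medians of 0.81 and 0.84, and without mitochondrial and small RNA genes in the scaling 4 and 3 of 6 were, with 0 lower. With the length trend removed 4 and 3 were higher (medians 0.50 and 0.37), and with the expression trend removed 3 and 4 (medians 0.37 and 0.49). PFDN2 went from 73.6 FPKM to 186 and 212 FPKM, a change of 1.33 and 1.53 (0.78 and 0.81 with the expression trend removed). The changes were 1.24 and 1.14 for PFDN4 and 1.05 and 1.13 for PFDN1, and at 5 µM 0.67 and 0.64 with the expression trend removed. Summed, prefoldin was at 277 FPKM in DMSO, 500 FPKM at 2.5 µM and 538 FPKM at 5 µM. The prefoldin-like and R2TP genes, which assemble larger complexes with HSP90, had 5 of 7 higher at each dose and 1 lower at 2.5 µM, with medians of 0.66 and 0.28 that became 0.37 and −0.09 without mitochondrial and small RNA genes in the scaling. PDRG1 led them at 22.6, 73.1 and 72.0 FPKM (1.69 and 1.67), and PIH1D1 (0.73 and 0.98) and UXT (1.09 and 0.95) were also higher. With the length trend removed PDRG1 was at 1.47 and 1.36, PIH1D1 at 0.37 and 0.48, and UXT at 0.61 and 0.24, the last inside the fold.

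The phosducin-like genes, whose proteins bind TRiC and modulate its folding, had median changes of 0.27 and 0.36, beside 0.19 and 0.31 for TRiC. TXNDC9 was at 11.1, 13.5 and 15.4 FPKM (0.28 and 0.47) and PDCL3 at 16.8, 20.3 and 21.7 FPKM (0.27 and 0.36), both past the fold at both doses. PDCL was at 18.9, 22.0 and 19.2 FPKM (0.22 and 0.02) and PDCL2 was at 0; as for TRiC, the signs of PDCL3 and of TXNDC9 at 2.5 µM did not hold under other scalings. Relatives of the chaperonins that resemble TRiC subunits and act in Bardet-Biedl syndrome were lower: BBS12 (1.70, 0.80 and 0.73 FPKM, −1.12 at 5 µM), BBS10 (−0.33 and −0.40) and MKKS (−0.28 and −0.39) make 3 of 3 expressed members lower past the fold at both doses on the deposited scale. With the length or expression trend removed 2 of 3 were, as at 2.5 µM with a common FPKM sum. MKKS was then at −0.09 and −0.03 with the length trend removed, and BBS12 at −0.48 and −0.49 with the expression trend removed. The other relatives, CCT6B and CCT8L2, were below a mean of 1 FPKM.

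Counts of actin and tubulin genes lay near the all-gene shares. Among 11 expressed actin and tubulin genes, 4 were higher and 6 lower at 2.5 µM, and 5 higher and 4 lower at 5 µM, with medians of −0.26 and −0.19. Without mitochondrial and small RNA genes in the scaling, 3 were higher and 6 lower at each dose, with medians of −0.55 and −0.57, and with the expression trend removed 1 and 2 were higher, 5 and 6 lower. The actin genes ACTG1 (479, 1102 and 1313 FPKM, 1.20 and 1.45) and ACTB (407, 679 and 849 FPKM, 0.74 and 1.06) were higher, and the tubulin gene TUBA1A (72.9, 28.6 and 34.0 FPKM, −1.35 and −1.10) was lower. With the expression trend removed, ACTB was within the fold (0.10 and 0.19) and ACTG1 at 0.57 and 0.59. Of 9 WD40 clients, 6 were higher and 1 lower at 2.5 µM and 7 higher and 2 lower at 5 µM, with medians of 0.78 and 1.01 that became 0.33 and 0.46 with the expression trend removed. RACK1, a ribosome-bound scaffold, was at 95.7, 189 and 238 FPKM (0.98 and 1.31), PPP2R2A, a phosphatase subunit, changed by 1.71 and 1.74, and the G protein subunit GNB4 by −1.22 and −1.78. The tubulin cofactors, which take tubulin on after TRiC, had 3 of 5 higher at each dose, and 1 and 2 lower: TBCC (1.08 and 1.55), TBCB (0.64 and 0.90) and TBCD (−0.69 and −0.74). Leaving out TBCE, whose 2 rows had been summed, removal of the length trend gave 1 higher and 1 lower at 2.5 µM and 2 higher and 2 lower at 5 µM, and removal of the expression trend 1 and 1, then 2 and 1.

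**Figure D5:**
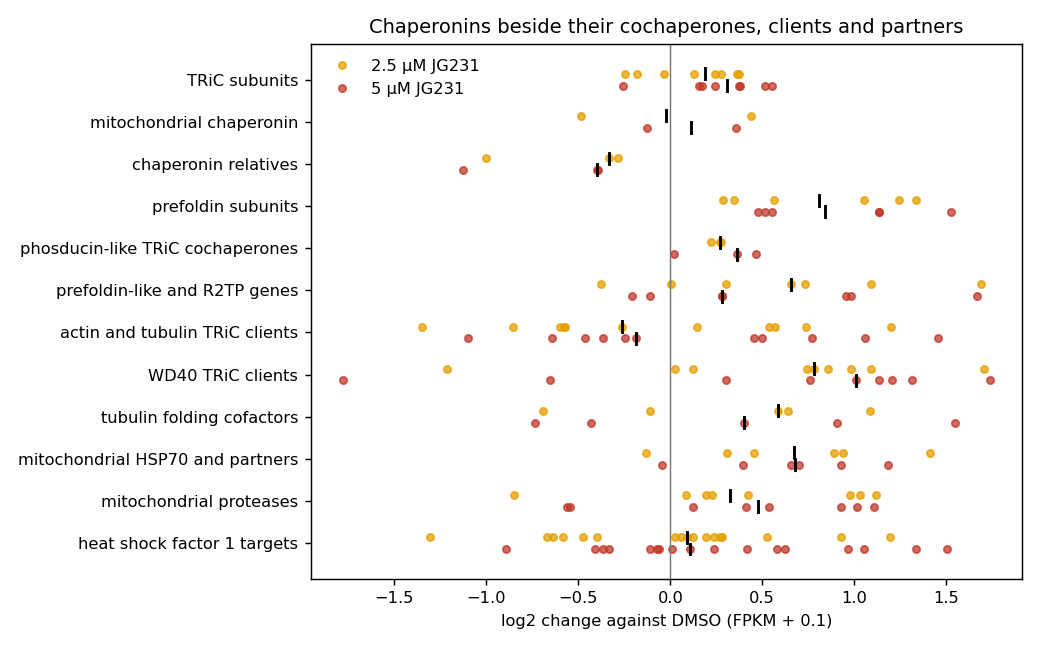
Log2 change against DMSO (horizontal axis) of every expressed gene in each list, as points for 2.5 µM and 5 µM, with black ticks at the medians. The TRiC medians (0.19 and 0.31) lie between those of the chaperonin relatives (−0.33 and −0.40) and prefoldin (0.81 and 0.84); scaled without mitochondrial and small RNA genes the TRiC medians are below 0.

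Among partners of the mitochondrial chaperonin, most genes of the HSP70 list were higher at both doses, and counts of the proteases lay nearer the all-gene shares. HSPA9, the mitochondrial HSP70 that passes imported proteins on to HSP60, was at 56.9 FPKM in DMSO, 109 FPKM at 2.5 µM and 108 FPKM at 5 µM, a change of 0.94 and 0.93 (0.45 and 0.31 with the expression trend removed). Of 6 expressed genes of this list, 5 were higher at both doses and 0 lower, with medians of 0.67 and 0.68 that became 0.39 and 0.30, with 3 and 4 higher and 1 lower at each dose, without mitochondrial and small RNA genes in the scaling. They included the exchange factor GRPEL2 (1.41 and 1.18) and the J protein DNAJA3 (0.31 and 0.70). Among 8 mitochondrial protease genes, 4 were higher and 1 lower at 2.5 µM, and 5 higher and 2 lower at 5 µM, with medians of 0.33 and 0.48; without mitochondrial and small RNA genes in the scaling the counts were 3 and 1, then 3 and 3, and the medians 0.04 and 0.10. LONP1, the matrix protease, went from 37.5 to 81.5 and 81.0 FPKM (1.12 and 1.11, and 0.66 and 0.55 with the expression trend removed), and the subunits of the CLP protease, CLPP (0.98 and 1.01) and CLPX (1.03 and 0.93), were close to it. HSPD1 lay above 2 of the 6 genes of the HSP70 list at 2.5 µM and 1 at 5 µM, and above 5 and 3 of the 8 proteases. HSPE1 lay above 0 of the 6 at both doses, and above 1 and 2 of the proteases.

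The known targets of heat shock factor 1, to which HSPD1 and HSPE1 belong, had changes in both directions. On the deposited scale their higher calls lay near and their lower calls below the all-gene shares. Of 17 other targets, all expressed, 5 were higher and 6 lower at 2.5 µM, and 7 higher and 4 lower at 5 µM, with medians of 0.09 and 0.11 that became −0.20 and −0.27 without mitochondrial and small RNA genes in the scaling. HSPB1, a small heat shock protein, was at 321, 733 and 912 FPKM (1.19 and 1.51), and the J protein DNAJB1 was at 36.9, 70.4 and 93.3 FPKM (0.93 and 1.33). HSPA1B, an inducible HSP70 whose reads can be shared with its near-identical copy HSPA1A, was at 25.2, 36.4 and 52.5 FPKM (0.52 and 1.05). HSPD1 (0.44 and 0.36) lay above 14 of the 17 targets at 2.5 µM and 10 at 5 µM. HSPE1 (−0.49 and −0.13) lay above 4 of them at each dose.

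By distance over the 2 log2 changes, the protein-coding genes most like the TRiC median were SPINT2 (0.19 and 0.30), AAGAB (0.19 and 0.32) and H2AFY2 (0.18 and 0.32), and those most like the mean of HSPD1 and HSPE1 were TOP3A, MSL1 and CSAG2. With 3 libraries the likeness is weak: 895 and 783 of 7042 candidate genes lay within 0.25 of these profiles.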

How the data were processed

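RNA from H660 cells in 3 conditions (DMSO, 2.5 µM and 5 µM JG231) was sequenced, 1 library each, from cultures treated for 24 h. The paper's methods name HISAT for alignment and StringTie for quantification, and the authors deposited FPKM values in 1 table, each library a column. The submitters' processing notes name HISAT2 and featureCounts, with GRCh38/hg38 as build. Versions and annotation release are not given in the sources used here. The labels describe strand-specific libraries, from a smaller RNA input than the paper's methods.

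The members and lists were chosen with earlier results of these data known. Genes were matched by identifier to GENCODE 44 (58207 of 58735 matched). A change is the log2 ratio of FPKM values to each of which 0.1 was added, which understates changes of low genes; the fold of 0.25 follows the methods, which also filter on expression over 1, applied here as FPKM over 1 in either library. Expressed genes had a mean FPKM of at least 1. Fragments were recovered from FPKM multiplied by exon length in single-transcript genes, where 86.6% to 90.5% of low values came out whole within 0.1; annotation and gene lengths of the authors are not known, and no count model was applied. Named outside the members were up to 3 genes per list, with the largest absolute change at 5 µM among those of mean FPKM at least 1 and the same sign at both doses; genes overlapping a member or holding its pseudogene; and the 3 genes of mean FPKM at least 5 nearest in pattern. Immune, stromal and endothelial markers are named where they were at 0; prostate luminal markers are not reported here.

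Alternatives were pseudocounts of 1 and 0.01, common sums over all genes or leaving out mitochondrial and small RNA genes, centering on the median gene, removal of length or expression trends by lowess (fraction 0.3, 11200 protein-coding genes), a threshold of 1, a filter of 5 FPKM, and pseudogenes summed with members. The alternatives for differences within pairs of members were added after seeing the data. Scripts were tested on simulated data. Python 3.11.15, numpy 2.4.6, pandas 2.3.3, statsmodels 0.14.6 and matplotlib 3.10.9 were used. Promoter sequences were read from RefSeq.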

Additional observations from a re-analysis of the deposited data

Results flagged for a closer look

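TCP1 and CCT3 lay on opposite sides of DMSO at the 2 doses. The log2 change of TCP1 was −0.032 at 2.5 µM and 0.17 at 5 µM, and that of CCT3 was −0.18 at 2.5 µM and 0.16 at 5 µM. With 1 library per dose, the difference between doses was not tested, and both genes were within the fold of 0.25 at each dose. Both were below 0 at both doses after removal of the expression trend or of the length trend, and without mitochondrial and small RNA genes in the scaling. With a common FPKM sum TCP1 was at 0.017 at 2.5 µM.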

How the results depend on the processing

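No paired analysis was possible because each condition is 1 library. Other pseudocounts and the filter of 5 FPKM moved no median, mean or count of members beyond its margin. The median change of the TRiC subunits (0.31 at 5 µM, 0.19 at 2.5 µM) was 0.18 and 0.24 with a common FPKM sum, −0.071 and −0.10 with that sum taken without mitochondrial and small RNA genes, 0.052 and 0.045 with the length trend removed, and −0.22 and −0.23 with the expression trend removed. The mean of HSPD1 and HSPE1 (0.11 at 5 µM, −0.03 at 2.5 µM) was −0.27 and −0.32, −0.38 and −0.36, and −0.47 and −0.49 under the last 3 of these, and −0.017 at 5 µM with the common sum. Members higher past the fold at 5 µM (5) numbered 2, 0, 1 and 0 under these 4 alternatives in the same order, and those lower (1) numbered 2, 2, 2 and 5, while centered on the median gene 6 were higher and 0 lower. At 2.5 µM, those higher (4) numbered 0, 1 and 0 under the last 3, and those lower (1) numbered 4, 3 and 4. At a threshold of 1, the counts were 0 in both directions at both doses.

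Without mitochondrial and small RNA genes in the sum, single genes past the fold that changed sign were at 5 µM CCT2 (−0.00014), CCT8 (−0.0043), HSPD1 (−0.024) and PDCL3 (−0.017), and at 2.5 µM CCT4 (−0.013), TXNDC9 (−0.012) and PDCL3 (−0.019). With the expression trend removed they were at 5 µM CCT2 (−0.21), CCT4 (−0.081), CCT7 (−0.051), CCT8 (−0.23) and HSPD1 (−0.35), and at 2.5 µM CCT4 (−0.20), CCT7 (−0.12), CCT8 (−0.11), HSPD1 (−0.11), PDCL3 (−0.010) and MRPL18 (−0.14). With the length trend removed they were PDCL3 (−0.19 at 5 µM, −0.12 at 2.5 µM), TXNDC9 (−0.024) and MRPL18 (−0.074), the last 2 at 2.5 µM. Of 664 single-gene values under the alternatives, 46 changed sign, these 22 and 24 of genes within the fold on the deposited scale; the latter were of TCP1, CCT2, CCT3, CCT5, PDCL and SF3B1. With the expression trend removed, 5 µM changes of list genes were also smaller by over 1.5 times for HSPB1 (0.64), DNAJB1 (0.77), HSPA1B (0.60), RACK1 (0.58), TBCB (0.32), UXT (0.51), CLPP (0.59), TXNDC9 (0.30), PDCL3 (0.061), MKKS (−0.24) and MRPL18 (0.079). The HSPE1 to HSPD1 ratio at 5 µM was 0.274 with pseudogene and read-through rows summed. Over all genes, higher calls were 45.6% of calls at 2.5 µM and 44.7% at 5 µM, and 31.7% and 29.1% without mitochondrial and small RNA genes in the sum. The cause was not tested. With 1 library per condition, the spread between cultures is unknown, and counting intervals understate the error of every value.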
